A study of Homo sapiens with 36 samples.

Results

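The genes described here are 39 members of the antioxidant and detoxification program that the transcription factor NRF2 controls, among the 63677 genes listed in count tables from A549, an established human line of lung adenocarcinoma. They were chosen by name, as NRF2 itself (NFE2L2), its inhibitor KEAP1 and genes known as NRF2 targets, and their Ensembl identifiers were looked up in the tables. Earlier results of these data were known when the choice was made, so the shares set beside all genes below are descriptive. All 39 were found, and all 39 were among the 19180 genes with enough reads to be tested. The cells were grown with IL-1β, an inflammatory cytokine, at 1 ng/ml for 6, 15 or 21 days, and cells kept in it for 21 days were then followed without the cytokine, with collections at days 6, 15 and 30 of withdrawal. Untreated A549 cells were collected beside them each time, which gave 12 groups of 3 libraries of single-end RNA sequencing. The labels name the 3 libraries of a group as biological replicates of 1 cell line, so p-values measure the spread between cultures of A549 and not between tumors.

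In resting cells KEAP1 holds NRF2 in the cytoplasm and presents it for degradation. Oxidants and electrophiles disable KEAP1, and NRF2 then enters the nucleus, pairs with a small MAF protein and binds the antioxidant response element in front of genes for glutathione synthesis, thioredoxin, quinone and carbonyl reduction, NADPH supply, heme and iron handling, and export of conjugates. A549 cells carry mutant KEAP1 and keep NRF2 active without a stimulus, so that in these cells the program is high at the outset.

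The regulatory sequences in front of the genes that stood out most are shown first, since the antioxidant response element is how NRF2 reaches its targets. The sequences are from RefSeq on GRCh38.p14, whose table of promoters holds 29 of the 39 genes. The core of the element, TGACNNNGC, was searched on both strands of 300 bases, 250 before and 50 after each annotated start, and is in capitals. GPX2 and AKR1C2 had the lowest fold changes of the 39 genes at day 21, and AKR1C1 is the neighbour of AKR1C2. The 250 bases before their starts read, in the direction of transcription:
GPX2, chr14:64942746-64942995, minus strand: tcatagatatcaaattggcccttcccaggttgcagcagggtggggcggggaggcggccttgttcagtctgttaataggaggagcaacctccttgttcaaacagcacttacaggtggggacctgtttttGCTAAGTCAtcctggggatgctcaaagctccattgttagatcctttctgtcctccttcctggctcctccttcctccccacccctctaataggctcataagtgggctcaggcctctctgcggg
AKR1C1, chr10:4963165-4963414, plus strand: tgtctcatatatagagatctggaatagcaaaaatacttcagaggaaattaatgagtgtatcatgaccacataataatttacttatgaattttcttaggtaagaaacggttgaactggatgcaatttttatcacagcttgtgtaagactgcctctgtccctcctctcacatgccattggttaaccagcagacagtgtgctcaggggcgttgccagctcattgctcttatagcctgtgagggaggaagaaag
AKR1C2, chr10:5003858-5004107, minus strand: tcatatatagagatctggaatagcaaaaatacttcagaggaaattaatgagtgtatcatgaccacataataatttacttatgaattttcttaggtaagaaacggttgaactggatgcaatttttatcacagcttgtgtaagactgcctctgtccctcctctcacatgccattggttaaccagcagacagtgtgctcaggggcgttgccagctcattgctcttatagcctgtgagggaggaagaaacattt
The GPX2 window holds 1 match, with its first base at -122. Neither AKR1C window holds a match, which says only that these letters are not in these windows. The windows of AKR1C1 and AKR1C2 had 245 of 246 aligned bases in common, 99.6%, whereas AKR1C1 and the closer of the AKR1C3 windows in the table shared 78.6% of aligned bases.

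Matches were found for 11 of the 29 genes with a promoter entry, beside 16.1% of the 27305 genes in the table. Some windows hold more than 1 match. To show how the core varies among genes that did not pass the thresholds, 1 site each of 5 genes is given with the bases around it and the position of the first capital, where -1 is the base before the start:
GCLM, -34: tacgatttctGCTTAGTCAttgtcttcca
KEAP1, -31: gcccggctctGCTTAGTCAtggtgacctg
ME1, -137: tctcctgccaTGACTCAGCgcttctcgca
TXNRD1, -102: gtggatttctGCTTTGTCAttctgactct
CBR1, -159: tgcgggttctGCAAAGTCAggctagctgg
GCLM and KEAP1 carry the same 9 bases. Of the 9 genes that passed both thresholds below, 7 have a promoter entry and 1 of them, GPX2, holds the core, and 10 of the other 22 genes with an entry do. Bases outside these windows were not searched, so the counts do not show which genes lack an element. NQO1 and GCLC also have no match in their windows.

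Levels are given as CPM, read counts scaled to a common library size that edgeR's TMM method adjusts. Libraries held 9116032 to 23570026 counts on genes. A further difference between them was the share of mitochondrial transcripts, which was 11.8% to 24.6% in 11 libraries, 6 of controls and 5 of cells given IL-1β, and 5.61% to 7.75% in the other 25. Several of the 39 genes moved with this share, and values from the 25 libraries are given beside the genes whose calls differ there. The epithelial markers moved with the treatment. Of 5 listed, 4 were tested, and KRT8, KRT18 and CDH1 were lower past both thresholds at each of the 3 exposure times, with log2 fold changes of -1.89, -1.89 and -2.24 at day 21. CDH1, E-cadherin, then had 192, 185 and 213 CPM in the controls and 34.1, 27.5 and 63.1 CPM with IL-1β. By day 30 of withdrawal the 3 genes lay between -0.62 and -0.52 and did not pass. The 5 markers summed to 2900 to 7620 CPM in the 18 controls and 899 to 5140 CPM in the 18 cultures given IL-1β, those after withdrawal included, and KRT19 did not exceed 0.195 CPM in any library. The part of these markers in the results below was not tested. The alveolar type 2 genes NKX2-1, SFTPB, SFTPC and NAPSA summed to 0.759 to 2.35 CPM in the controls and 0.524 to 2.44 CPM with IL-1β. Of the markers of other cells, PTPRC, a marker of blood cells, did not exceed 0.14 CPM, and COL1A2 and DCN did not exceed 0.643 CPM. COL1A1, a collagen gene, reached 3.44 CPM in the controls and 3.04 CPM with IL-1β. It was called higher after 6 days of exposure, at a log2 fold change of 1.02, and after 21 days, at 1.24. The value of 0.81 after 15 days was not called. Its response at day 30 of withdrawal minus that at day 21 was -2.22, also called. In these bulk libraries fewer cells of a type and less RNA per cell cannot be told apart.

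Levels of the program in untreated cells spanned a wide range. Per kilobase of exon, FTL, the light chain of the iron store ferritin, was highest at 5450 CPM over the 18 control libraries, followed by ALDH1A1, a retinal and aldehyde dehydrogenase, at 1900 CPM and AKR1B10, an aldo-keto reductase, at 816 CPM. NQO1, which reduces quinones and is the classical readout of NRF2, stood at 380 CPM per kilobase. GPX2, a selenium-dependent glutathione peroxidase of epithelia, stood at 15.1 CPM per kilobase and was in place 31 of 39. GSTM3, a glutathione transferase, was lowest at 0.192 CPM per kilobase. Exon lengths are those of all annotated transcripts of a gene together, which lowers the value of genes with long or rarely used exons.

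With IL-1β a minority of the program was called lower than in the controls, and most of it was not called different. Being past both thresholds means a fold change over 2 together with an adjusted p under 0.05. At day 6 of IL-1β 6 of the 39 genes, 15.4%, were past both thresholds beside 2.77% of all genes tested. Of these 4 were lower, beside 1.25% of all genes, and 2 higher, beside 1.52%. At day 15 there were 7, all lower, where 4.24% of all genes passed and 2.3% were lower. At day 21 there were 6, all lower, where 4.26% of all genes passed and 2.06% were lower. After withdrawal there were 3 at day 6, all lower, where 1.8% of all genes passed and 0.725% were lower. GPX2, lower, was the 1 gene past both thresholds at day 15, where 0.954% of all genes passed and 0.36% were lower, and at day 30, where 0.897% passed and 0.464% were lower. In all, 9 genes passed both thresholds at 1 or more time points, 4 passed the adjusted p alone and 26 did not pass it at any. The share of all genes for these counts over the time points together was not computed.

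**Figure D1:**
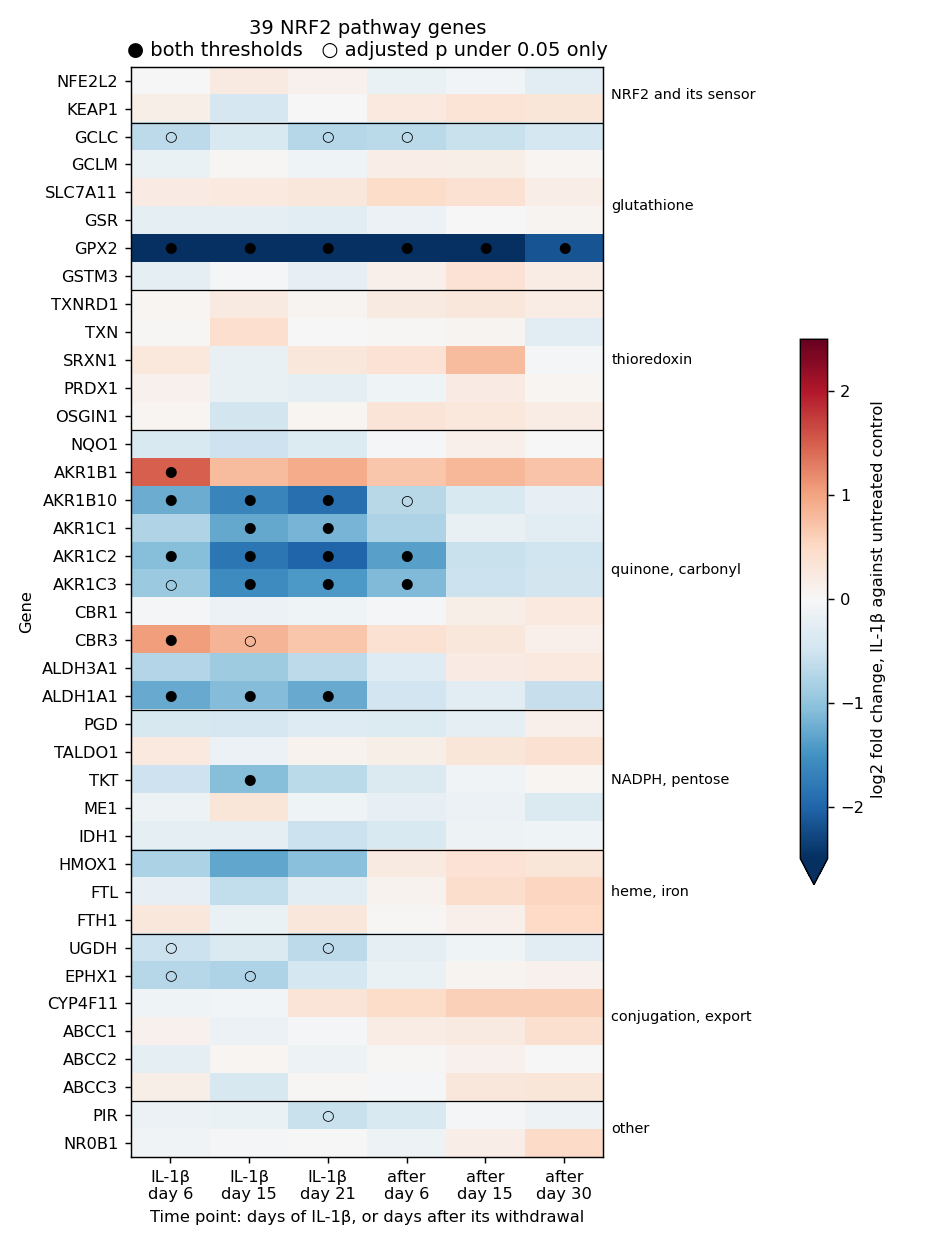
The map shows the log2 fold change of IL-1β against the untreated control (color, from -2.5 or below in dark blue to 2.5 in dark red) for the 39 genes (rows, grouped by role) at the 6 time points (columns), with filled dots for both thresholds and open dots for an adjusted p under 0.05 alone. GPX2 is marked at all 6 time points and AKR1B10, AKR1C2, AKR1C3 and ALDH1A1 at each exposure time, while the rows of thioredoxin, heme and iron genes carry no mark.

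The median log2 fold change of the 39 genes was -0.17, -0.24 and -0.20 at the 3 lengths of exposure, where that of all genes tested lay between -0.02 and -0.01. In withdrawal it was -0.05, then 0.13 and 0.07. In 19 of the 39 genes the 3 libraries with IL-1β at day 21 all lay below the 3 controls, beside 15.2% of all genes tested, and in 3 they all lay above, beside 13.8%. At day 30 after withdrawal 5 genes lay wholly below, beside 5.11% of all genes, and 6 wholly above, beside 6.78%. The mean log2 CPM over the 39 genes at day 21 was 7.77, 7.88 and 7.89 in the controls and 7.39, 7.29 and 7.54 with IL-1β, so the groups did not overlap. At day 30 after withdrawal it was 7.91, 7.50 and 7.97 in the controls and 7.83, 7.84 and 7.90 in the exposed cells, and the groups overlapped. The overlap came through the second control library, which is 1 of high mitochondrial share. Among the libraries of low share the controls had 7.91 and 7.97 and the exposed cells 7.83 and 7.90, a narrow gap without overlap. The genes past both thresholds at any time point averaged 8.864 and 9.145 in these controls and 8.404 and 8.634 in these exposed cells. The remaining genes lay the other way, at 7.629 and 7.621 against 7.662 and 7.682. This split follows the calls from the same libraries and is descriptive.

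NRF2 and its sensor come first. NFE2L2 stood at 98.7, 114 and 100 CPM in the day 21 controls and at 107, 125 and 105 CPM with IL-1β, and KEAP1 at 76.2, 75.1 and 76.1 CPM against 75.9, 65.7 and 83.9 CPM. The groups of both genes overlapped. The log2 fold changes of NFE2L2 at the 6 time points in order were -0.01, 0.22, 0.11, -0.17, -0.07 and -0.28, and those of KEAP1 were 0.14, -0.42, -0.01, 0.24, 0.34 and 0.30, none past an adjusted p of 0.05 and several with a sign that turned under another setting. KEAP1 differed with the mitochondrial share. It lay between 65.8 and 89.7 CPM in the 25 libraries of low share and between 22.3 and 67.5 CPM in the 11 of high share.

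The glutathione genes held the largest change of the program. GPX2 had 8.66, 14.5 and 18.0 CPM in the day 21 controls and 0.217, 0.225 and 0.903 CPM with IL-1β, which rest on 4, 3 and 22 reads. The highest exposed library therefore lay far below the lowest control. The log2 fold change was -4.80 ± 0.58 (SE), with an adjusted p of 1.24e-06 by edgeR's quasi-likelihood test, a 27.9-fold lower level, and GPX2 was in place 17 from the lowest of the 19180 log2 fold changes. Without replicate 3, whose exposed library was the highest, the log2 fold change was -5.66, and without the others in turn it was -4.71 and -4.48. The gene lies on chromosome 14 at 65405870 to 65409464 of GRCh37, on the minus strand, shares no exon with another gene, and has no 50-base stretch in common with other transcripts.

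GPX2 was still lower after withdrawal, by a smaller amount. At day 30 it had 14.8, 8.49 and 36.8 CPM in the controls and 2.85, 3.58 and 7.11 CPM in the cells that had been exposed, so the groups still did not overlap. Its log2 fold changes in order were -4.28, -4.27, -4.80, -3.30, -2.63 and -2.15, past both thresholds at each time point, with an adjusted p of 0.0166 at the last. Of the day 21 change on the log2 scale, 44.8% was left at day 30. The difference between the responses at day 30 after withdrawal and at day 21, 2.65 ± 0.73 (SE), was not past the threshold, with an adjusted p of 0.107 by the same test. Without replicate 1 the adjusted p at days 6, 15 and 30 after withdrawal was 0.116, 0.266 and 0.52, and without replicate 2 it was 0.0126, 0.118 and 0.148, while the log2 fold changes stayed between -3.60 and -1.89 without any 1 replicate. In the 25 libraries of low mitochondrial share it was -3.49, -2.43 and -2.32 at these days, with adjusted p values of 0.00211, 0.123 and 0.017, where days 6 and 15 have 1 control library, assumed to vary like the other groups.

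Among the other glutathione genes, GCLC, the catalytic subunit of the rate-limiting enzyme of glutathione synthesis, had 262, 261 and 271 CPM in the day 21 controls and 159, 160 and 163 CPM with IL-1β. The groups were tight and apart, but the change was below 2-fold. Its log2 fold changes in order were -0.66, -0.39, -0.72, -0.67, -0.56 and -0.44, with an adjusted p under 0.05 on days 6 and 21 and 6 days into withdrawal. In the 25 libraries of low mitochondrial share the last of these was -0.59, with an adjusted p of 0.162, and day 15 was -0.53, with 0.033. GCLM, the modifier subunit of the same enzyme, had log2 fold changes between -0.17 and 0.16 and passed no threshold. SLC7A11, which imports the cystine from which glutathione is made, lay between 0.17 and 0.46 at all 6 time points, GSR, the reductase of oxidized glutathione, between -0.27 and 0.07, and GSTM3 between -0.23 and 0.35, all without passing. None of the 5 thioredoxin genes passed either. TXNRD1, thioredoxin reductase, ranged from 0.05 to 0.28, TXN from -0.28 to 0.43, the peroxiredoxin PRDX1 from -0.24 to 0.21, sulfiredoxin SRXN1 from -0.18 to 0.80 and OSGIN1, an oxidative stress-induced growth inhibitor, from -0.46 to 0.32. SRXN1 shares 90.6% of its 50-base stretches with another annotated gene and its counts are uncertain.

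**Figure D2:**
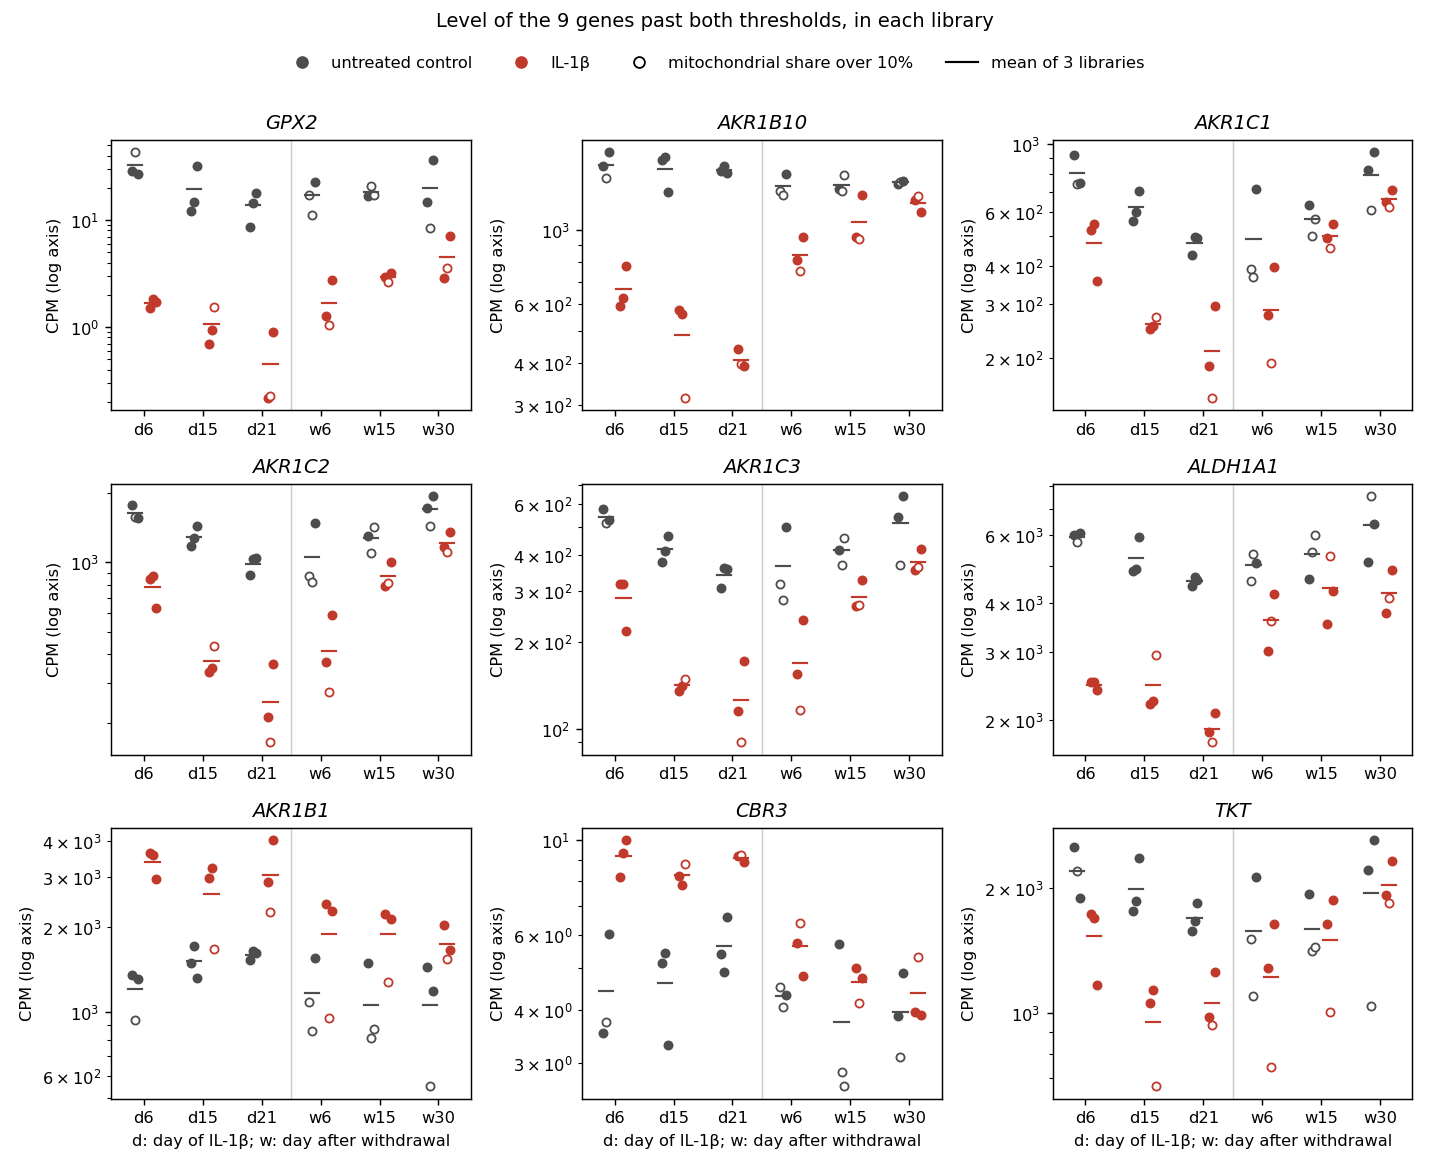
Each panel shows 1 of the 9 genes past both thresholds in the 36 libraries, as CPM on a log axis against the 6 time points, with untreated cells in grey, cells given IL-1β in red, open circles for libraries of high mitochondrial share and a line at the mean of 3 libraries. GPX2 stays below its controls at all times, whereas AKR1B10 and AKR1C1 approach theirs by day 30 after withdrawal.

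The quinone and carbonyl reducing enzymes held most of the other changes. At days 15 and 21, 5 of 10 genes were lower past both thresholds, beside 2.3% and 2.06% of all genes tested. AKR1C1, AKR1C2 and AKR1C3 among these are neighbours with sequence in common. AKR1B10, which reduces retinal and lipid aldehydes, had 1499, 1553 and 1473 CPM in the day 21 controls and 442, 397 and 391 CPM with IL-1β. The replicates differed by far less than the groups. The log2 fold change was -1.88 ± 0.17 (SE), a 3.68-fold lower level with an adjusted p of 1.44e-08 by edgeR. At day 30 after withdrawal the controls had 1372, 1386 and 1395 CPM and the exposed cells 1223, 1259 and 1133 CPM, which is lower in each library but by a log2 fold change of -0.20 with an adjusted p of 0.807. In order its log2 fold changes were -1.23, -1.65, -1.88, -0.68, -0.37 and -0.20. The response at day 30 differed from that at day 21 by 1.68 ± 0.24 (SE), with an adjusted p of 0.000143 in a comparison in which 0.626% of all genes passed both thresholds. This adjusted p was 0.2 without replicate 1 and 0.0665 without replicate 2. AKR1B10 lies on chromosome 7 at 134212319 to 134226164 of GRCh37 and shares 14.5% of its 50-base stretches with other genes, AKR1B15 and a pseudogene among them.

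AKR1B1, aldose reductase, lies beside it at 134127108 to 134144036 and had the opposite sign. At day 6 of IL-1β it had 3629, 3563 and 2948 CPM against 1355, 942 and 1314 CPM in the controls, 2.81-fold higher with a log2 fold change of 1.49 ± 0.34 (SE) and an adjusted p of 0.00726 by edgeR. At day 21 it had 1534, 1642 and 1613 CPM in the controls and 2876, 2247 and 4024 CPM with IL-1β, and at day 30 after withdrawal 1443, 549.1 and 1191 CPM against 2033, 1535 and 1655 CPM. The exposed libraries lay above the controls each time, with wide spread. Its log2 fold changes in order were 1.49, 0.79, 0.93, 0.69, 0.83 and 0.71, and the first alone was past the threshold. Its median was 957 CPM in the libraries of high mitochondrial share and 1720 CPM in the others. In the 25 libraries of low share it was past both thresholds at all 3 times with IL-1β, with log2 fold changes of 1.36, 1.03 and 1.13, and not after withdrawal. Without replicates 1 and 3 in turn the adjusted p at day 6 was 0.21 and 0.0661.

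AKR1C1, AKR1C2 and AKR1C3 reduce steroids, prostaglandins and quinones and lie together on chromosome 10 between 5005445 and 5149878 of GRCh37. AKR1C2 had 880, 1037 and 1047 CPM in the day 21 controls and 212, 165 and 362 CPM with IL-1β, a log2 fold change of -2.004 ± 0.26 (SE) with an adjusted p of 3.58e-06 by edgeR. AKR1C1 had 435, 496 and 493 CPM against 189, 148 and 295 CPM, and AKR1C3 had 306, 361 and 357 CPM against 115, 89.7 and 171 CPM. In all 3 genes the exposed libraries lay below the controls, and the third exposed library was the highest of its group. At day 30 after withdrawal AKR1C2 still had 1727, 1434 and 1943 CPM in the controls and 1165, 1106 and 1360 CPM in the exposed cells, without overlap. AKR1C1 had 824, 611 and 945 CPM against 650, 624 and 709 CPM, and AKR1C3 had 543, 370 and 639 CPM against 354, 362 and 418 CPM. In both genes the groups overlapped through the second control library, which is 1 of high mitochondrial share.

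The log2 fold changes of AKR1C2 in order were -1.07, -1.80, -2.004, -1.37, -0.55 and -0.49, past both thresholds at the first 4. Those of AKR1C1 were -0.75, -1.27, -1.17, -0.77, -0.19 and -0.26, past both on days 15 and 21. With the 25 libraries alone AKR1C1 was at -0.95, below 2-fold, at day 21, and past both thresholds 6 days into withdrawal, at -1.07 with an adjusted p of 0.0161, where 1 control library remains. It also had an adjusted p of 0.00827 at day 6 there, at -0.79. Those of AKR1C3 were -0.93, -1.57, -1.44, -1.11, -0.53 and -0.45, past both at days 15 and 21 and again 6 days into withdrawal. The response of AKR1C2 at day 30 differed from that at day 21 by 1.51 ± 0.36 (SE), with an adjusted p of 0.0357, which was 0.972 without replicate 1 and 0.684 without replicate 2. AKR1C1 and AKR1C2 share 24.9% and 36% of their 50-base stretches with other genes, mostly each other. The counting set reads without a unique alignment apart, so reads that fit both genes could be missing from both counts. A sum of the counts does not bring such reads back. Their counts summed with those of AKR1C3 gave log2 fold changes of -0.95, -1.60, -1.63, -1.14, -0.45 and -0.42, with adjusted p values of 0.021, 6.46e-05, 4.82e-05 and 0.00709 at the first 4. For the summed counts the response at day 30 of withdrawal differed from that at day 21 by 1.21, which was not past the threshold, with an adjusted p of 0.153. Without replicate 1 no AKR1C gene was past both thresholds at day 6 of IL-1β or at day 6 after withdrawal, where AKR1C2 and AKR1C3 then had adjusted p values of 0.253 and 0.43. AKR1C1 then had 0.134 at day 15 and 0.222 at day 21, and AKR1C3 had 0.0719 at day 21, and without replicate 2 AKR1C1 had 0.0712, while AKR1C2 was past both thresholds at days 15 and 21 without any 1 replicate.

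ALDH1A1, which oxidizes retinal to retinoic acid and is used as a marker of stem-like tumor cells, had the highest level per kilobase of the 9 genes past both thresholds. It had 4423, 4680 and 4602 CPM in the day 21 controls and 1871, 1756 and 2085 CPM with IL-1β, a 2.40-fold lower level with a log2 fold change of -1.26 ± 0.17 (SE) and an adjusted p of 5.99e-06 by edgeR. At day 30 after withdrawal it had 5123, 7554 and 6384 CPM against 3785, 4140 and 4864 CPM. The exposed libraries lay below the controls at both times. In order the log2 fold changes were -1.27, -1.09, -1.26, -0.47, -0.29 and -0.58, past both thresholds at the 3 times with IL-1β and with an adjusted p of 0.0993 at the last. Each of the 3 calls remained when any 1 replicate was left out.

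CBR3, a carbonyl reductase, was higher. It had 3.53, 3.74 and 6.03 CPM in the day 6 controls and 8.21, 9.35 and 9.99 CPM with IL-1β, a log2 fold change of 1.04 ± 0.24 (SE) with an adjusted p of 0.00791 by edgeR. At day 21 it had 5.41, 4.89 and 6.61 CPM against 9.18, 9.21 and 8.91 CPM, and at day 30 after withdrawal 3.87, 3.09 and 4.87 CPM against 3.94, 5.33 and 3.88 CPM, where the groups overlapped. In order the log2 fold changes were 1.04, 0.84, 0.69, 0.38, 0.29 and 0.13, with an adjusted p under 0.05 at days 6 and 15 of IL-1β. An antisense gene covers 71.1% of its exons, and the strand setting of the counting is not given in the sources used here. Whether reads of this overlap were counted for CBR3, for the antisense gene or for neither is therefore not known. Without replicates 1 and 2 in turn the adjusted p at day 6 was 0.243 and 0.167. Among libraries of low mitochondrial share the value at day 6 was 0.95, below 2-fold, with an adjusted p of 0.0065, and that at day 21, 0.69, had an adjusted p of 0.0285. CBR1, its paralog on chromosome 21, ranged from -0.14 to 0.25 and did not pass.

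NQO1 did not pass the thresholds. It had 1205, 1247 and 1180 CPM in the day 21 controls and 1036, 818 and 1017 CPM with IL-1β, lower in each library, with log2 fold changes in order of -0.39, -0.53, -0.34, -0.04, 0.12 and -0.01. In the 25 libraries of low mitochondrial share the values with IL-1β were -0.50, -0.34 and -0.22, the first and the second with an adjusted p of 0.0016 and 0.0306. ALDH3A1, another aldehyde dehydrogenase, was at -0.74, -0.90 and -0.66 during exposure without passing and at -0.76, -0.57 and -0.57 in the 25 libraries with adjusted p values of 0.000201, 0.00367 and 0.00359. It is named after its values were seen.

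**Figure D3:**
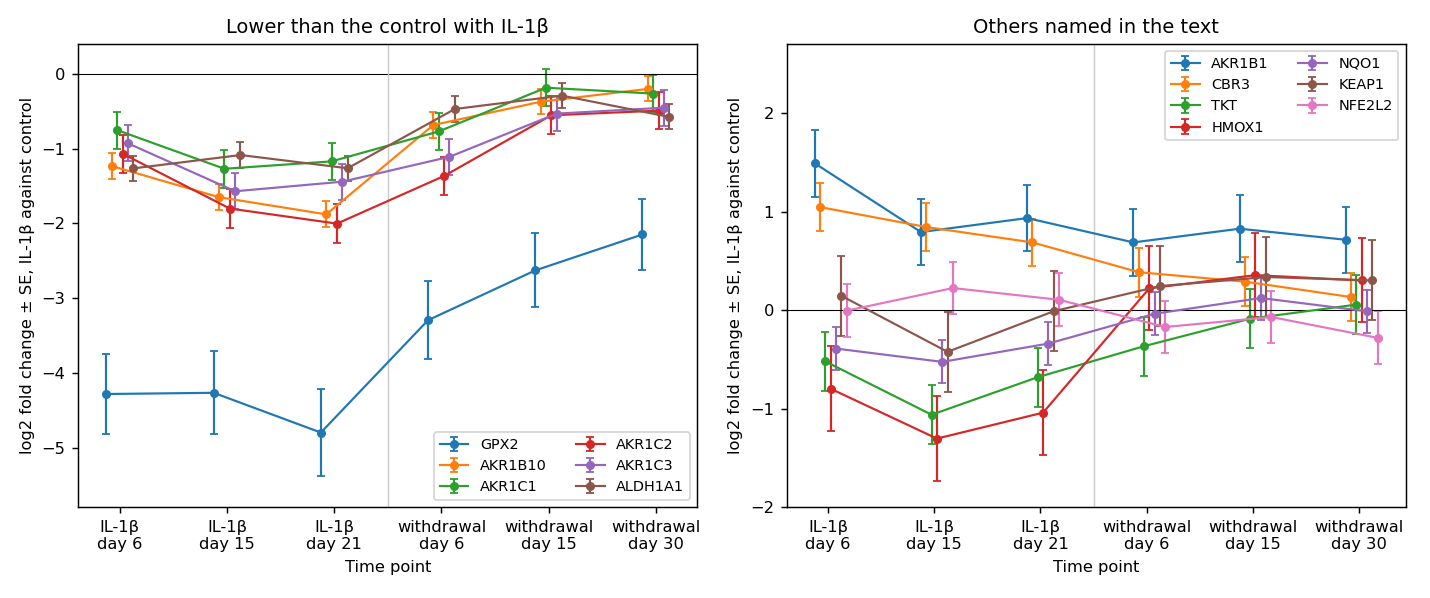
Points give the log2 fold change of IL-1β against the untreated control at the 6 time points (x axis). Bars are 1 SE, derived from the test statistic. Genes lower during exposure are on the left and other genes named in the text on the right. AKR1B10, AKR1C1, AKR1C2, AKR1C3 and ALDH1A1 lie between -0.58 and -0.20 at day 30 after withdrawal, GPX2 at -2.15 and AKR1B1 at 0.71.

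Of the genes that supply NADPH, which feeds these reductases, TKT, transketolase of the pentose phosphate pathway, passed both thresholds at day 15. It then had 1753, 1853 and 2359 CPM in the controls and 1057, 1136 and 667 CPM with IL-1β, a log2 fold change of -1.06 ± 0.30 (SE) with an adjusted p of 0.0288 by edgeR. The lowest of these libraries, the third with IL-1β, is 1 of high mitochondrial share. Without the 11 such libraries the log2 fold change was -0.86, below 2-fold, with an adjusted p of 0.00269. Without replicates 1 and 3 in turn the adjusted p was 0.309 and 0.441. At day 21 TKT had 1575, 1660 and 1839 CPM in the controls and 979, 935 and 1253 CPM with IL-1β, without overlap, and at day 30 after withdrawal 2202, 1040 and 2596 CPM against 1924, 1836 and 2311 CPM, with overlap. In order its log2 fold changes were -0.52, -1.06, -0.68, -0.37, -0.09 and 0.06. PGD, TALDO1, ME1 and IDH1, the other NADPH and pentose phosphate enzymes, lay between -0.53 and 0.39 and did not pass. IDH1 and PGD were at -0.53 and -0.45 at day 15 in the 25 libraries, with adjusted p values of 0.0228 and 0.0261, and TKT at -0.58 at day 21, with 0.0364.

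HMOX1, heme oxygenase, which breaks down heme, differed in its calls between all libraries and those of low mitochondrial share. It had 68.9, 73.5 and 73.2 CPM in the day 21 controls and 34.2, 32.9 and 37.7 CPM with IL-1β, and at day 30 after withdrawal 80.4, 22.1 and 80.9 CPM against 77.4, 66.8 and 82.9 CPM. The groups were apart at day 21 and overlapped at day 30, where the second control library, 1 of high mitochondrial share, was lowest. In order the log2 fold changes were -0.80, -1.30, -1.04, 0.22, 0.36 and 0.30, and no adjusted p was under 0.05, with 0.529, 0.0731 and 0.216 during exposure. In the 25 libraries of low mitochondrial share the values during exposure were -0.92, -0.93 and -0.98, with adjusted p values of 0.000121, 0.000125 and 6.59e-05 by edgeR, past that threshold and just under a fold change of 2. Within these libraries HMOX1 lay at 32.5 to 46.6 CPM in 7 exposed cultures, at 63.9 to 87.4 CPM in 12 controls and at 77.4 to 98.7 CPM in 6 cultures after withdrawal, so that exposed cells did not overlap with either of the others. In the 11 libraries of high share the controls lay at 22.1 to 54.2 CPM, as low as exposed cells of the 25. The ferritin genes FTL and FTH1 ranged from -0.62 to 0.53 and did not pass. FTH1 was higher at day 6 in the 25 libraries, at 0.57 with an adjusted p of 0.0122. FTL had a median of 2770 CPM in the libraries of high share against 5400 CPM in the others.

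**Figure D4:**
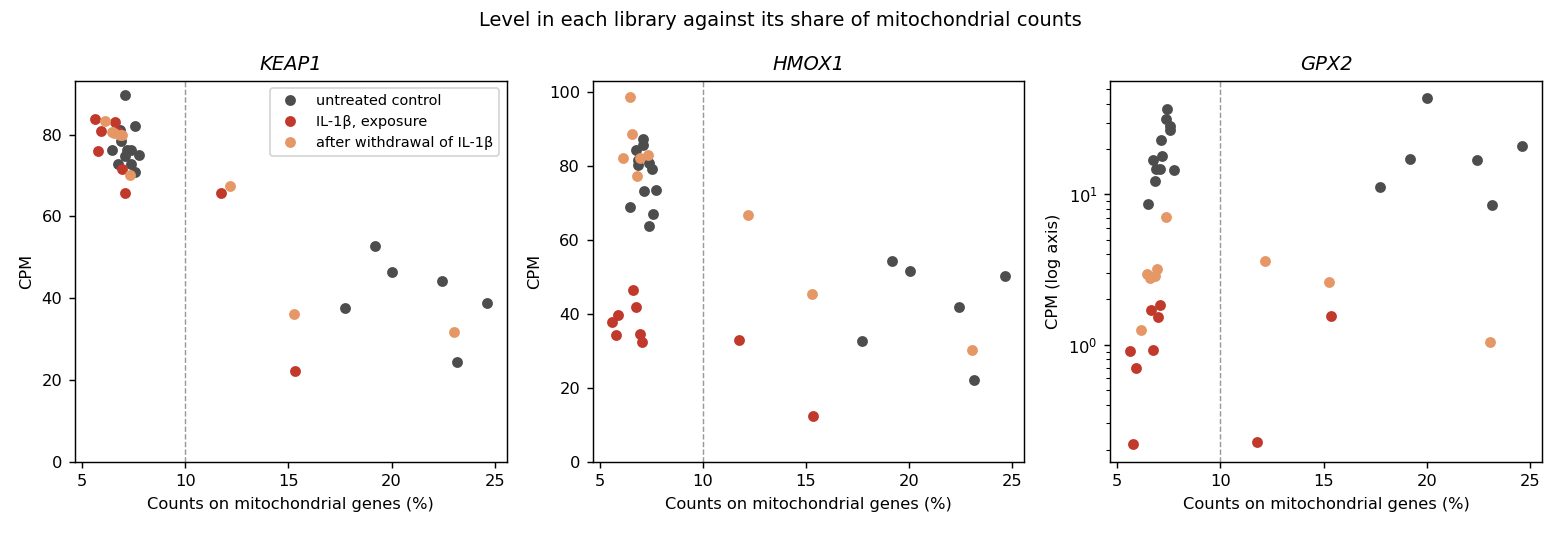
Each point is 1 library, placed by its share of counts on mitochondrial genes in percent (x axis, dashed line at 10%) and its CPM (y axis, log for GPX2), with untreated controls in grey, exposure to IL-1β in red and cells after withdrawal in orange. KEAP1 is lower in most libraries of high share, with ranges that overlap between 65.8 and 67.5 CPM, HMOX1 separates exposed cells from the others within the low share, and GPX2 separates exposed cells and controls in both.

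Among the 25 libraries, 15, 17 and 14 of the 39 genes had an adjusted p under 0.05 at the 3 lengths of exposure, beside 7.84%, 10.6% and 11.4% of the 20248 genes tested there. In all 36 libraries these counts were 10, 9 and 9, beside 4.27%, 6.43% and 6.4%. Lower among these were 12, 15 and 12 in the 25 libraries, beside 3.33%, 5.44% and 5.06% of all genes, and 8, 8 and 9 in all 36, beside 1.98%, 3.11% and 3.09%. The part of the mitochondrial share in the larger counts was not tested.

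Of the genes for conjugation and export, 2 passed the adjusted p alone. UGDH, which makes the UDP-glucuronate used to conjugate drugs and steroids, had log2 fold changes in order of -0.53, -0.35, -0.66, -0.25, -0.12 and -0.26, past the threshold at days 6 and 21, and in the 25 libraries also at day 15, at -0.48 with an adjusted p of 0.00148. EPHX1, microsomal epoxide hydrolase, had -0.72, -0.77, -0.43, -0.17, 0.08 and 0.11, past it at days 6 and 15. The conjugate exporters ABCC1, ABCC2 and ABCC3 and the fatty acid hydroxylase CYP4F11 lay between -0.40 and 0.59 and did not pass. PIR, a nuclear iron-binding protein, passed the adjusted p at day 21 alone, with log2 fold changes of -0.14, -0.18, -0.55, -0.39, -0.05 and -0.12, and NR0B1, an orphan nuclear receptor, lay between -0.13 and 0.47 without passing.

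No change with the duration of exposure passed the thresholds. Of the 39 genes 0 were called between the responses at day 21 and day 6 by edgeR, beside 0.0104% of all genes. Between untreated cells of the last and the first collection 0 of the 39 were called, again beside 0.0104% of all genes, with log2 differences between -0.70 and 0.41. The response at day 30 of withdrawal was higher than that at the end of exposure for 2 genes past both thresholds, AKR1B10 and AKR1C2, beside 0.328% of all genes in that direction.

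Other genes of the pathway were taken from lists that do not overlap with the 39. At day 21 each of the 3 lists had 1 gene past both thresholds. These were 3.7%, 5.26% and 3.7% of those tested in the order below, near the 4.26% of all genes. At day 6 of IL-1β the lists had 2, 2 and 1 genes past both thresholds, which were 7.41%, 10.5% and 3.7% beside 2.77%. With so few genes these shares are not read as a difference from all genes. With an adjusted p under 0.05 at any fold change, 11.1%, 21.1% and 7.41% passed at day 6, beside 4.27% of all genes. The regulators among these, 4 of 19, were all higher. At day 15 the shares past both thresholds were 3.7%, 5.26% and 3.7%, beside 4.24%. Of 30 further NRF2 targets 27 were tested, and CYP4F3, which hydroxylates leukotriene B4, was the 1 past both thresholds at day 21. It had 22.6, 19.6 and 29.6 CPM in the controls and 8.04, 6.36 and 8.08 CPM with IL-1β, a log2 fold change of -1.67 ± 0.20 (SE), and its values in order were -1.63, -1.84, -1.67, -1.22, -0.53 and -0.29. Its groups did not overlap at day 21. Of 19 partners and regulators of NRF2, MAFF, a small MAF protein, was past both thresholds at day 21. It had 4.16, 5.25 and 5.02 CPM in the controls and 10.5, 13.3 and 13.3 CPM with IL-1β, and its log2 fold changes in order were 1.71, 0.93, 1.36, 0.30, -0.03 and 0.30. At day 15, where it did not pass, 1 of its libraries with IL-1β, at 5.38 CPM, lay within the controls. NFE2L3, a related transcription factor, was the 1 regulator past both thresholds on that day, and is named after its values were seen. Of 27 tested genes among 32 further glutathione and peroxide genes, GPX3, the secreted glutathione peroxidase, was past both thresholds at day 21, in the direction opposite to GPX2. It had 1.31, 0.603 and 1.04 CPM in the controls and 8.53, 5.84 and 11.1 CPM with IL-1β. During exposure the log2 fold change was 3.28, then 2.53 and 3.10, and at day 30 after withdrawal its levels were 1.99, 1.16 and 1.13 CPM in the controls against 2.38, 1.30 and 1.36 CPM, with overlap.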

How the data were processed

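RNA of 36 A549 cultures was made into stranded mRNA libraries and sequenced single-end. Per the labels and the submitters' processing notes, the authors used bcl2fastq 2.17, TopHat2 2.0.14, Bowtie2 2.2.5 and HTSeq 0.6.1 with GRCh37, and deposited raw read counts per Ensembl gene. The strand setting and annotation release are not given in the sources used here.

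Counts were fitted with edgeR 4.0.16 (R 4.3.3) for all 36 libraries and 12 groups, after filterByExpr, with TMM scaling, the quasi-likelihood test (glmQLFit, glmQLFTest) and 24 residual degrees of freedom. P-values were two-sided and adjusted by Benjamini-Hochberg over all 19180 genes. The SE is the absolute log2 fold change divided by the square root of the F statistic of this test. Both thresholds means an adjusted p under 0.05 and a fold change over 2. Simulated counts with 200 genes changed by a log2 size of 2 at day 21 gave 152 calls, 76%, and 5 false calls among 18800 genes. Smaller changes, like most of those described here, were not simulated. The median library had 15902700 counts. Counts carry no molecular identifiers.

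The members and lists were chosen with earlier results of these data known. Members past both thresholds were named with all replicate values at day 21 and at day 30 after withdrawal and with log2 fold changes at 6 time points, those past the adjusted p alone with log2 fold changes, the rest by range, with NFE2L2, KEAP1, NQO1 and HMOX1 always named. From other lists at most 3 genes were named, by the largest change at day 21. The rule was extended to ranges per gene for the other members. Alternatives were DESeq2 1.42.0 size factors and its Wald test, total counts, other filters and thresholds, summed AKR1C counts, a replicate block, separate fits, and leaving out replicates, mitochondrial genes or the libraries with over 10% mitochondrial counts.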

Additional observations from a re-analysis of the deposited data

Results flagged for a closer look

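With the cell type markers left aside, 4 of the genes named had a response 30 days into withdrawal that differed from that at day 21. The test was the interaction contrast of edgeR's quasi-likelihood test. On the log2 scale, the later response minus the earlier was 1.68 for AKR1B10 (adjusted p 0.000143), 1.51 for AKR1C2 (adjusted p 0.0357), 1.39 for CYP4F3 (adjusted p 0.00853) and -2.90 for GPX3 (adjusted p 0.0134). AKR1B10, AKR1C2 and CYP4F3 were lower with IL-1β and less so after withdrawal, and GPX3 was higher with IL-1β and less so after withdrawal. Without replicate 1 the adjusted p of AKR1B10 and AKR1C2 was 0.2 and 0.972.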

How the results depend on the processing

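Among 1466 settings of 104 results on named genes, 1357 kept direction and side of the threshold, 42 fell below it, 21 passed it and 46 changed sign. The count of members past both thresholds kept within 1.5 times on days 15 and 21 in every alternative run. With an adjusted p under 0.05 alone it was 10 at day 6 and, 6 days into withdrawal, 5. With a separate fit it was 0 at days 6 and 30 after withdrawal. At least 10 counts in every library removed GPX2 and left 0 at days 15 and 30 after withdrawal. Without the libraries of high mitochondrial share it was 0 at day 15, and with an adjusted p under 0.01 it was 0 at day 30 and 1 for the difference between day 30 after withdrawal and day 21, which was also 1 with total counts. Leaving out 1 replicate gave 3 to 6 at day 6, 5 to 9 at day 15 and 4 to 6 at day 21 of IL-1β, 0 to 3, 0 to 1 and 0 to 1 after withdrawal, and 0 to 5 for the difference. The low ends on day 6, with IL-1β or after it, came without replicate 1, those at days 15 and 30 and for the difference without replicate 1 or 2, and the 5 without replicate 3. Same-numbered libraries deviated together, with r over 0.1, in 14 of 18 pairs, and the lowest r was -0.336, so that not all pairs met the condition for pairing. Of the 36 libraries 30 correlated best with those of their own number, a hint from the data that the numbers may mark something shared. Most libraries of high mitochondrial share are of replicate 2, including all replicate 2 libraries collected during withdrawal. Leaving out replicate 2 and leaving out the libraries of high share are therefore not separate checks. With the replicate block the counts were 6, 8, 6, 3, 1 and 1 in order of time, with HMOX1 added at day 15 (adjusted p 0.048), and 3 for the difference, with GPX2 added. The block also put below 0.05 the adjusted p of AKR1C1 on day 6 of IL-1β and of withdrawal (0.0481 and 0.0488), of PIR at day 6 of withdrawal (0.0345) and of ALDH1A1 at day 30 (0.0249). The causes were not tested.

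Signs turned only for log2 fold changes that were not past the threshold. Without the libraries of high mitochondrial share, CBR3 was at -0.22 and -0.16 at days 15 and 30 after withdrawal, and at day 30 EPHX1 was at -0.088, HMOX1 at -0.002, KEAP1 at -0.006, NFE2L2 at 0.056 and TKT at -0.17. KEAP1 was then at -0.037 and 0.093 at days 6 and 21, NFE2L2 at 0.12 and -0.11 on days 6 and 15 of exposure and at 0.17 at day 15 of withdrawal, and NQO1 at -0.059 at that day. KEAP1 at day 21 was at 0.003 with DESeq2 size factors, 0.001 without a filter and 0.004 by the Wald test. NFE2L2 at day 6 of IL-1β was at 0.008 with DESeq2 size factors and by the Wald test, 0.095 with total counts, 0.002 without mitochondrial genes, 0.034 without a filter, 0.005 with the replicate block and 0.016 in the separate fit. With total counts NQO1 was at 0.05 at days 6 and 30 after withdrawal, and NFE2L2 at 0.141, PIR at 0.139, TKT at 0.102 and UGDH at 0.078 at day 15. NQO1 was at 0.01 at day 30 with the replicate block. Leaving out 1 replicate ranged at day 30 from -0.167 to 0.379 for CBR3, -0.10 to 0.245 for EPHX1, -0.014 to 0.522 for HMOX1, -0.017 to 0.493 for KEAP1, -0.465 to 0.045 for NFE2L2, -0.178 to 0.122 for NQO1 and -0.185 to 0.198 for TKT. At day 15 it ranged from -0.394 to 0.229 for NFE2L2, -0.06 to 0.261 for NQO1, -0.344 to 0.024 for TKT and -0.303 to 0.008 for UGDH, and at day 6 after withdrawal from -0.003 to 0.352 for KEAP1 and -0.171 to 0.036 for NQO1. With IL-1β it ranged from -0.094 to 0.073 for KEAP1 at day 21 and from -0.034 to 0.095 for NFE2L2 at day 6.

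Depth limits GPX2 most, since its day 21 level with IL-1β rests on 3 to 22 reads per library.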
